A study of Caenorhabditis elegans with 2 samples.

Results

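Mitochondrial ribosomal protein genes of the nematode *Caenorhabditis elegans* were taken as the protein-coding genes whose symbol begins with mrpl- (large subunit) or mrps- (small subunit) in the Ensembl annotation. The rule uses names alone and no measured value. It gave 70 of 19973 protein-coding genes on the nuclear chromosomes, 41 named for the large and 29 for the small subunit. Each gene was examined in a promoter window around the 5′ end of each of its protein-coding transcripts, reaching 1000 bp upstream and 500 bp downstream, and 62 of the 70 had a single 5′ end.

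Mitochondria carry their own ribosomes, which make the few respiratory chain subunits encoded in mitochondrial DNA. The RNAs of these ribosomes are also encoded in mitochondrial DNA, while their proteins are encoded in the nucleus, made in the cytosol and imported. In worms, lower activity of *mrps-5* is known to unbalance mitochondrial and nuclear protein supply, to induce the mitochondrial unfolded protein response and to lengthen life. Many worm genes, housekeeping genes among them, lie in operons: closely spaced genes on 1 strand that are transcribed from the promoter of the first and separated by trans-splicing.

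The data are ChIP-seq regions of UNC-98::GFP, a tagged form of a zinc finger protein known from muscle attachment sites and nuclei. Both samples are strain OP85, with the transgene wgIs85 (unc-98::TY1 EGFP 3xFLAG with unc-119(+)) in an unc-119(ed3) background. They are whole L1 larvae, starved after bleaching and 6 hours old, and are biological replicates 1 and 2 of 1 group. Chromatin sonicated to 200 to 800 bp was precipitated with an anti-GFP antibody. Every sample thus carried the tag, the rescue gene and starvation, and no untagged or fed sample was analysed here, so binding that depends on the tag or on feeding cannot be told apart from other binding. Whole larvae were used, so the tissue that gave a signal is not known, and fewer bound cells and less binding per cell cannot be told apart.

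The 8 deposited lists give regions with a summit and a signal value from the authors' software, on a scale that is not stated. No read counts were used, so depth is unknown. The conservative list holds 728 regions, the second thresholded list of the series 790, and the thresholded lists of replicates 1 and 2 hold 577 and 394. Ranked lists of 103403 to 131786 candidate regions extend down to regions with no support. A gene is called bound where a summit of a thresholded list lay in its window. With 1 group there is no comparison of conditions and no test, and the counts are set beside those of all genes. The window of *unc-98* itself held no candidate. That of *unc-119*, whose rescue copy is in the transgene, had a signal of 42.0 and no conservative region.

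A conservative region lay in the window of 8 of the 70 genes (11.4%), against 3.16% of all protein-coding genes. The 8 genes are *mrpl-15*, *mrpl-18*, *mrpl-23*, *mrpl-28*, *mrpl-38* and *mrpl-45* of the large subunit and *mrps-7* and *mrps-35* of the small one. In the second thresholded list 6 of 70 were bound (8.57%, against 3.38% of all genes). Replicate 1 alone gave 7 of 70 (10%, against 2.89%) and replicate 2 alone gave 4 of 70 (5.71%, against 1.79%). *mrpl-18*, *mrpl-23*, *mrpl-28* and *mrps-35* were bound in all 4 lists. The thresholded lists hold no region above an irreproducible discovery rate (IDR) of 0.01. They leave out 47 to 74 ranked regions that also pass it, of which 0 lie in member windows. At an IDR of 0.001, 2 of the 70 remained (*mrpl-28* and *mrps-35*), against 1.45% of all genes.

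The strongest of these regions belonged to *mrps-35*, which encodes mS35, a small subunit protein without a bacterial counterpart. It lay at chrV:18981125-18981241 with a signal of 152.8 in replicate 1, 77.1 in replicate 2 and 236.6 in both together, rank 86 of 728. Its summit stood at -120 bp from *mrps-35* (negative is upstream) but at -36 bp from the divergent gene *sws-1*, in whose 5′ UTR it fell. *sws-1* encodes a SWIM-domain protein of homologous recombination, and which of the genes the signal belongs to cannot be told from position.

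*mrpl-28* encodes bL28m, the counterpart of bacterial L28, and had the clearest region of its own. At chrII:155966-156281 the signal was 115.4 in replicate 1, 57.9 in replicate 2 and 187.3 in both together, rank 136, with the summit at -115 bp. No other protein-coding gene had a window over this summit.

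*mrpl-18* encodes uL18m, of a protein family found in all ribosomes. At chrIII:8144635-8144950 its region had a signal of 57.1 in replicate 1, 53.3 in replicate 2 and 118.6 in both together. The summit stood at -222 bp from *mrpl-18* and at -164 bp from the divergent gene *C14B9.8*. The replicates were closest to each other here among the regions bound in all 4 lists.

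*mrps-7* encodes uS7m, whose bacterial counterpart sits in the head of the small subunit. At chrIV:14767743-14768058 the signal was 59.7 in replicate 1, 35.9 in replicate 2 and 109.5 in both together, with the summit at -171 bp, and at -300 bp from the divergent gene *Y57G11C.3*. It was in neither replicate's thresholded list, nor in the second list of the series. *mrpl-45* encodes mL45, whose human counterpart tethers the mitochondrial ribosome to the inner membrane. At chrIII:1202218-1202533 its signal was 60.4 in replicate 1, 38.9 in replicate 2 and 90.6 in both together. The summit lay at -368 bp, nearer to the divergent *Y119D3B.12* at -170 bp, and the region was missing from the thresholded list of replicate 2.

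The bases around these summits are shown because short strings recur in them. They are from the RefSeq sequence of WBcel235, the build of the files (ce11), written 5′ to 3′ on the strand of the member. Capitals mark the strings CTAGGCCA, GAGTACAC, ACTCCTCT and AGACGCAG (read on either strand), and 2 runs of 13 letters that member regions share, GAGAGGAGTACAC and GTCCGCAAACACC. For *mrps-35*, whose summit lies in a UTR, only 30 bases are shown.
mrpl-18 (chrIII:8144718-8144868, plus strand): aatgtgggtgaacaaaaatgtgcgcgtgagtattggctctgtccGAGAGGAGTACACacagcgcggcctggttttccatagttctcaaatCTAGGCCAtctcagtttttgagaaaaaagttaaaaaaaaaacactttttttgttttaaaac
mrps-35 (chrV:18981186-18981215, plus strand): tcCTAGGCCAccgccgGTGTACTCCTCTCc
mrps-7 (chrIV:14767826-14767976, minus strand): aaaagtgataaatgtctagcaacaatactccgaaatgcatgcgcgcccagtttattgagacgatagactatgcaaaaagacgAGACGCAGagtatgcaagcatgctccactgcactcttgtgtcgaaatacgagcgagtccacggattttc
mrpl-28 (chrII:156049-156199, minus strand): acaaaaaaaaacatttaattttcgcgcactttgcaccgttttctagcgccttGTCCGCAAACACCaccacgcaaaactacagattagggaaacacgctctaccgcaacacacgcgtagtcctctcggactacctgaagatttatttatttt
mrpl-45 (chrIII:1202301-1202451, minus strand): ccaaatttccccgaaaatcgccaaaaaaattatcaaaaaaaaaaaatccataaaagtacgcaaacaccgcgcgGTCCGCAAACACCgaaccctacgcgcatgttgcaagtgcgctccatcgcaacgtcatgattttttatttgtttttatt
The regions of *mrpl-18* and *mrps-35* hold both CTAGGCCA, on the strand of the member, and the run GAGAGGAGTACAC, on the strand of *mrpl-18* but opposite to *mrps-35*. The run contains GAGTACAC and the reverse complement of ACTCCTCT, which overlap. In both regions CTAGGCCA and the run lie within the bases printed, but in *mrps-35* they are close together and in *mrpl-18* farther apart. *mrpl-28* and *mrpl-45* hold GTCCGCAAACACC on the strand of the member, and *mrps-7* holds AGACGCAG.

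These strings were chosen after the data were seen. They are strings of 8 letters kept in order of excess near conservative summits over flanks 1000 bp upstream on the plus strand. Going down that order, strings sharing 6 letters in a row with one already kept were passed over, and 6 were kept. Their excess over the flanks is thus no finding, and that over promoters is no independent support. The other 2, CGTCTCTC and CGCAGAGA, were in no member region. Within 75 bp of the summit, CTAGGCCA was in 63 of 728 conservative regions (8.65%) and in 0.651% of promoter stretches of the same length. AGACGCAG was in 94 regions (12.9%) and 2.28% of promoters. GAGTACAC and ACTCCTCT were each in 42 regions (5.77%), and in 0.536% and 0.596% of promoters. Any of the 6 was in 3 of 9 member regions (33.3%), in 29.5% of all conservative regions and in 4.79% of promoters, so member regions held them about as often as bound regions in general. The run GAGAGGAGTACAC was in 23 of the 728 regions and in 32 of 19973 promoters. The run GTCCGCAAACACC was in 4 regions, of which *mrpl-28* and *mrpl-45* are 2, and in 14 promoters. Both runs were picked because member regions share them, so their counts are no independent support either. A match describes letters and is not shown to be a binding site.

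Of 12 further short sequences listed from general knowledge and searched within 100 bp of the summit, most were rare in the 9 member regions. Runs of 8 T (TTTTTTTT on either strand) stood in 4 of them, at *mrpl-18*, *mrpl-28*, *mrpl-45* and *mrps-35*. They were in 12.6% of all regions, in 26.3% of promoters and in 31.4% of the members' promoters, bound or not. The E-box CACGTG stood in 1 member region, at *mrpl-38* (7.55% of regions, 4.22% of promoters). The GATA site CTTATC and the TATA-like TATAAA stood in none (5.08% and 14.1% of regions). The GC content within 100 bp of the summit ran from 29.4% to 53.7% in member regions with a median of 38.8%, against a median of 43.0% over the list. Promoter stretches, bound or not, also had a lower median for the members, 28.4% against 32.8% for all genes.

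The other 3 bound genes lie on chromosome I. *mrpl-23* encodes uL23m, of the family that in bacteria lines the exit of the peptide tunnel. Its region, at 6212722 to 6213037, had a signal of 61.7 in replicate 1, 48.6 in replicate 2 and 120.8 in both together, and was in all 4 lists. The summit lay at -995 bp, at the edge of the window, inside an intron of the upstream gene *fars-1* (a cytosolic phenylalanyl-tRNA synthetase subunit) and over exons of the non-coding RNA gene *T08B2.14* and a pseudogene. The snoRNA gene *T08B2.13* lay within 200 bp. With a window from 500 bp upstream to 200 bp downstream, *mrpl-23* was not bound.

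*mrpl-15* encodes uL15m and was the one member with 2 conservative regions, which overlap. The stronger, from 1435525 to 1435840, had a signal of 77.2 with its summit at -596 bp, and the weaker, from 1435724 to 1436039, had 26.5 at -397 bp. Both overlap the same candidates of the replicates, with 49.8 in replicate 1 and 33.6 in replicate 2, and replicate 2 did not pass its threshold. *mrpl-38* encodes mL38, a large subunit protein without a bacterial counterpart. Its region, from 1029682 to 1029997, had 32.8 in replicate 1, 34.8 in replicate 2 and 57.6 in both together, and was in no other thresholded list. Its summit lay at 70 bp, in the gene's own coding exon, the one member region downstream of a 5′ end.

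A ninth gene, *mrpl-37* (mL37), was bound in the list of replicate 1 alone. Its region at chrII:13575551-13575826 had a signal of 43.4 there at -621 bp, and the same summit lay at -236 bp from the divergent gene *lin-38*. Replicate 2 had no candidate in its window.

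**Figure D1:**
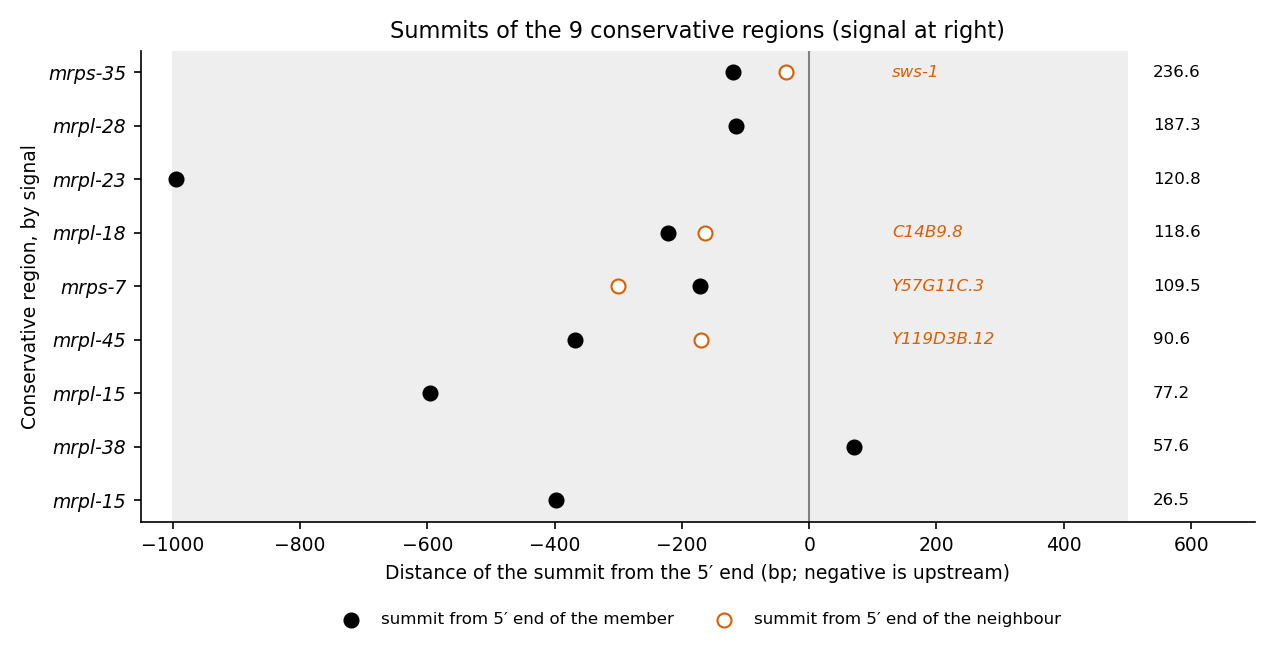
Distance in bp of the summit of each of the 9 conservative regions (rows, by signal) from the 5′ end of the member (filled) and, where another coding gene shares the summit, from the 5′ end of that neighbour (open); the window of 1000 bp upstream and 500 bp downstream is shaded. The median distance is -222 bp, 4 regions have a neighbour, and at *mrps-35*, *mrpl-18* and *mrpl-45* the neighbour is the nearer.

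Among the 9 regions, 4 lay in the window of another protein-coding gene as well, the divergent neighbour in each case. Over the list, 182 of 477 promoter regions (38.2%) were in more than 1 window. The member was the nearest gene for 6 of the 9. Counting each region for its nearest gene alone left 5 members bound, against 2.26% of all genes. Signals of the 9 ran from 26.5 to 236.6, with 5 above the list's median of 105. Replicate 1 gave the higher value at 8 of the 9, as at 67.2% of the 722 conservative regions with a value in both. The regions of *mrpl-15* take the same pair of replicate values, so that pair is counted again among the 9.

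Many members lie close to other genes. A divergent 5′ end of another coding gene lay within 1000 bp upstream of 28 of the 70 (40%), against 18.3% of all coding genes. Of these 28, 4 were bound (14.3%), against 7.87% of all divergent genes. The end of a gene on the same strand lay within 500 bp upstream of another 27 (38.6%, against 18.1%), here called tandem genes, and for 20 of them within 120 bp. In their own windows 1 of the 27 was bound, *mrpl-23* (3.7%), against 2.05% of all tandem genes. Among the 15 members with neither layout 3 were bound (20%, against 2.14%).

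For the 27 tandem members the window of the first gene of the run was read as well. A run is inferred from distance and strand, not from operon annotation. That first gene had a conservative region for 10 of the 27 members (37.0%), against 7.08% of the 3615 tandem genes in all. The 10 members stand behind 9 distinct first genes, as *mrps-2* and *mrpl-4* share one. Among them *mrps-12*, *mrpl-32* and *mrpl-54* joined their first genes across wide gaps, of 461, 411 and 374 bp. Those are gaps next to the member. Gaps between genes farther up the longer runs were not listed and can be wide as well. The share was 10 of 27 in the second list (against 7.25%), 9 in the list of replicate 1 (against 6.64%) and 4 in that of replicate 2 (14.8%, against 4.32%). Bound in their own window or that of the first gene were 18 of the 70 (25.7%), against 4.36% of all coding genes. Tandem genes are read in more windows than others here. They make up 38.6% of the members and 18.1% of all coding genes, so these 2 shares rest on unlike numbers of windows per gene. With runs joined only up to 200 bp, fewer members were tandem genes, and a bound first gene stood before 6 of them. The share of all tandem genes was not counted at that distance.

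**Figure D2:**
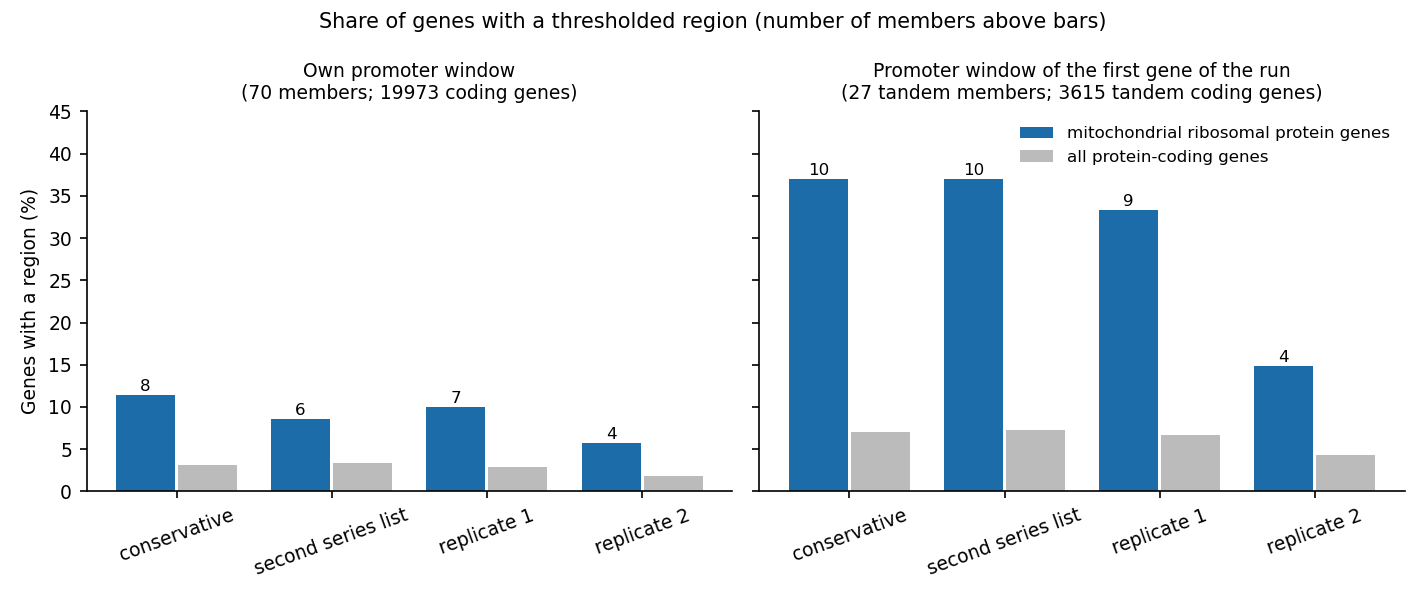
Percent of genes with a region in each of the 4 thresholded lists, for mitochondrial ribosomal protein genes (blue, with the number of genes) and all protein-coding genes (grey): left in the gene's own window, right, for tandem genes, in the window of the first gene of the run. In the conservative list the members stand at 11.4% and 37.0%, all coding genes at 3.16% and all tandem genes at 7.08%.

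The highest signal at a first gene was that of *F29B9.11*, before *mrps-21*. At chrIV:4660581-4660704 it was 191.4 in replicate 1, 196.9 in replicate 2 and 403.1 in both together, rank 16 of 728 and above every region in a member's own window. The summit lay -1086 bp from *mrps-21*, outside its window. *mrps-21* was one of the 2 genes that a window of 2000 bp upstream added, with *mrps-28*.

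Next came *nrde-2*, a gene of nuclear RNA interference that stands before *mrps-14* (uS14m). Its 2 regions, with signals of 347.0 and 102.6 in both replicates together, had 212.9 and 46.7 in replicate 1 and 132.2 and 45.2 in replicate 2. These 2 regions hold the same stretch of 52 bases on opposite strands, a sequence found in 14 of 728 regions and 4 of 19973 promoters. Whether this repeated sequence bears on their signal was not tested. The region of *tag-124*, the first of 4 genes that precede *mrpl-53* in a run, had 97.7 in replicate 1, 83.2 in replicate 2 and 178.7 in both together. Within it stood the run GAGAGGAGTACAC of the *mrpl-18* and *mrps-35* regions, as shown by 30 bases that reach into a UTR, written on the strand of *mrpl-53*, where the run reads as its reverse complement (capitals).
tag-124 (chrII:9591283-9591312, plus strand): ccgcgcgtcGTGTACTCCTCTCagacaaac
At *num-1*, the worm Numb gene before *mrps-12* (uS12m), the signal was 86.1 in replicate 1, 73.7 in replicate 2 and 156.3 in both together. *F29B9.11*, *nrde-2*, *tag-124* and *num-1* were the first genes bound in the lists of both replicates.

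The other 5 first genes had signals from 74.8 to 143.1 and were not in the thresholded list of replicate 2. *rpn-3*, a proteasome subunit gene before *mrpl-32* (bL32m), had 73.9 in replicate 1 and 49.7 in replicate 2. *eif-3.E*, a translation initiation factor subunit gene before *mrps-30*, had 104.3 and 45.3. *natc-1*, an N-terminal acetyltransferase subunit gene before *mrps-2* (uS2m) and *mrpl-4* (uL4m), had 49.8 and 37.1. *clsp-1*, before *mrpl-54* (mL54), and *W04B5.5*, before *mrpl-30*, were the other 2. *clsp-1* had 61.5 and 30.5, and *W04B5.5*, in neither replicate's thresholded list, had 32.0 and 43.5. Among these 5 first genes the summits lay from -2606 to -7506 bp from the member.

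Below the threshold, candidates were nearly everywhere. A candidate of the ranked list from which the conservative one comes lay in the window of 69 of the 70 members, against 92.2% of all coding genes. The other ranked list of the series gave 70 (against 92.5%), replicate 1 gave 64 (against 86.2%) and replicate 2 gave 67 (against 88.0%). Since most genes have one, only the signal of the candidates is described.

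The highest candidate signal per member had a median of 31.6, against 29.0 over all coding genes with a candidate. Each list's highest candidate was taken wherever it lay in the window, so the replicates' values for a gene can come from different places. Ranked among all coding genes, the members' median was at percentile 61.8, with 15 of 70 above percentile 90, 43 above percentile 50 and 3 among the lowest 10% of the genes. In the replicates the median stood at percentiles 56.8 and 52.4. With the narrower window of 500 bp upstream and 200 bp downstream the median was at 45.3, below the middle of all genes, so no shift of the members as a whole can be read from candidate signal. The 41 genes named for the large subunit stood at a median percentile of 65.0 and the 29 named for the small subunit at 56.2.

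The 8 bound members had candidate signals from 57.6 to 236.6 and the other 61 with a candidate from 4.31 to 63.8, so the groups overlap. The members above *mrpl-38* without a conservative region were *mrpl-48*, *mrpl-40* and *mrpl-2*. *mrpl-48* had 31.5 in replicate 1, 27.1 in replicate 2 and 63.8 in both together. *mrpl-40* (mL40) had 24.0, 33.7 and 63.2 in the same order. *mrpl-2*, with a uL2 domain, had 33.4, 26.2 and 57.99. The value of 63.8 at *mrpl-48* is also the highest in the window of *vps-37*, which ends 94 bp upstream on the same strand. At *mrpl-40* the summit in both together lay at -422 bp, beyond the 5′ end of the divergent gene *F54C4.4*, 178 bp upstream.

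Next were *mrpl-37* with 54.5 in both replicates together, *mrpl-55* with 49.2, *mrpl-53* with 47.9, *mrpl-46* (mL46) with 47.6, *mrpl-39* with 46.8 and *mrps-17* (uS17m) with 42.9. Replicate 1 had less than replicate 2 in all of these except *mrpl-37*, which had no candidate in replicate 2. *mrpl-53* had 8.20 against 23.8, *mrpl-46* had 14.2 against 30.8 and *mrpl-39* had 9.64 against 16.7. These pairs need not be the same region. The replicate 1 and replicate 2 candidates stood at -600 and 339 bp at *mrpl-53*, and at -947 and -158 bp at *mrpl-39*. At *mrpl-46* they stood at -314 and -221 bp. At the lower end *mrps-34* had no candidate, *mrpl-12* had 4.31 and *mrps-2* (uS2m) had 5.23. *mrps-5*, the gene of the lifespan studies, had 11.5 in replicate 1, 11.4 in replicate 2 and 21.9 in both together, at percentile 31.9 of all genes. These 3 candidates lay at different places, 251, 457 and -733 bp in the same order. *mrps-5* is a tandem gene behind *sel-1*, and neither had a conservative region.

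**Figure D3:**
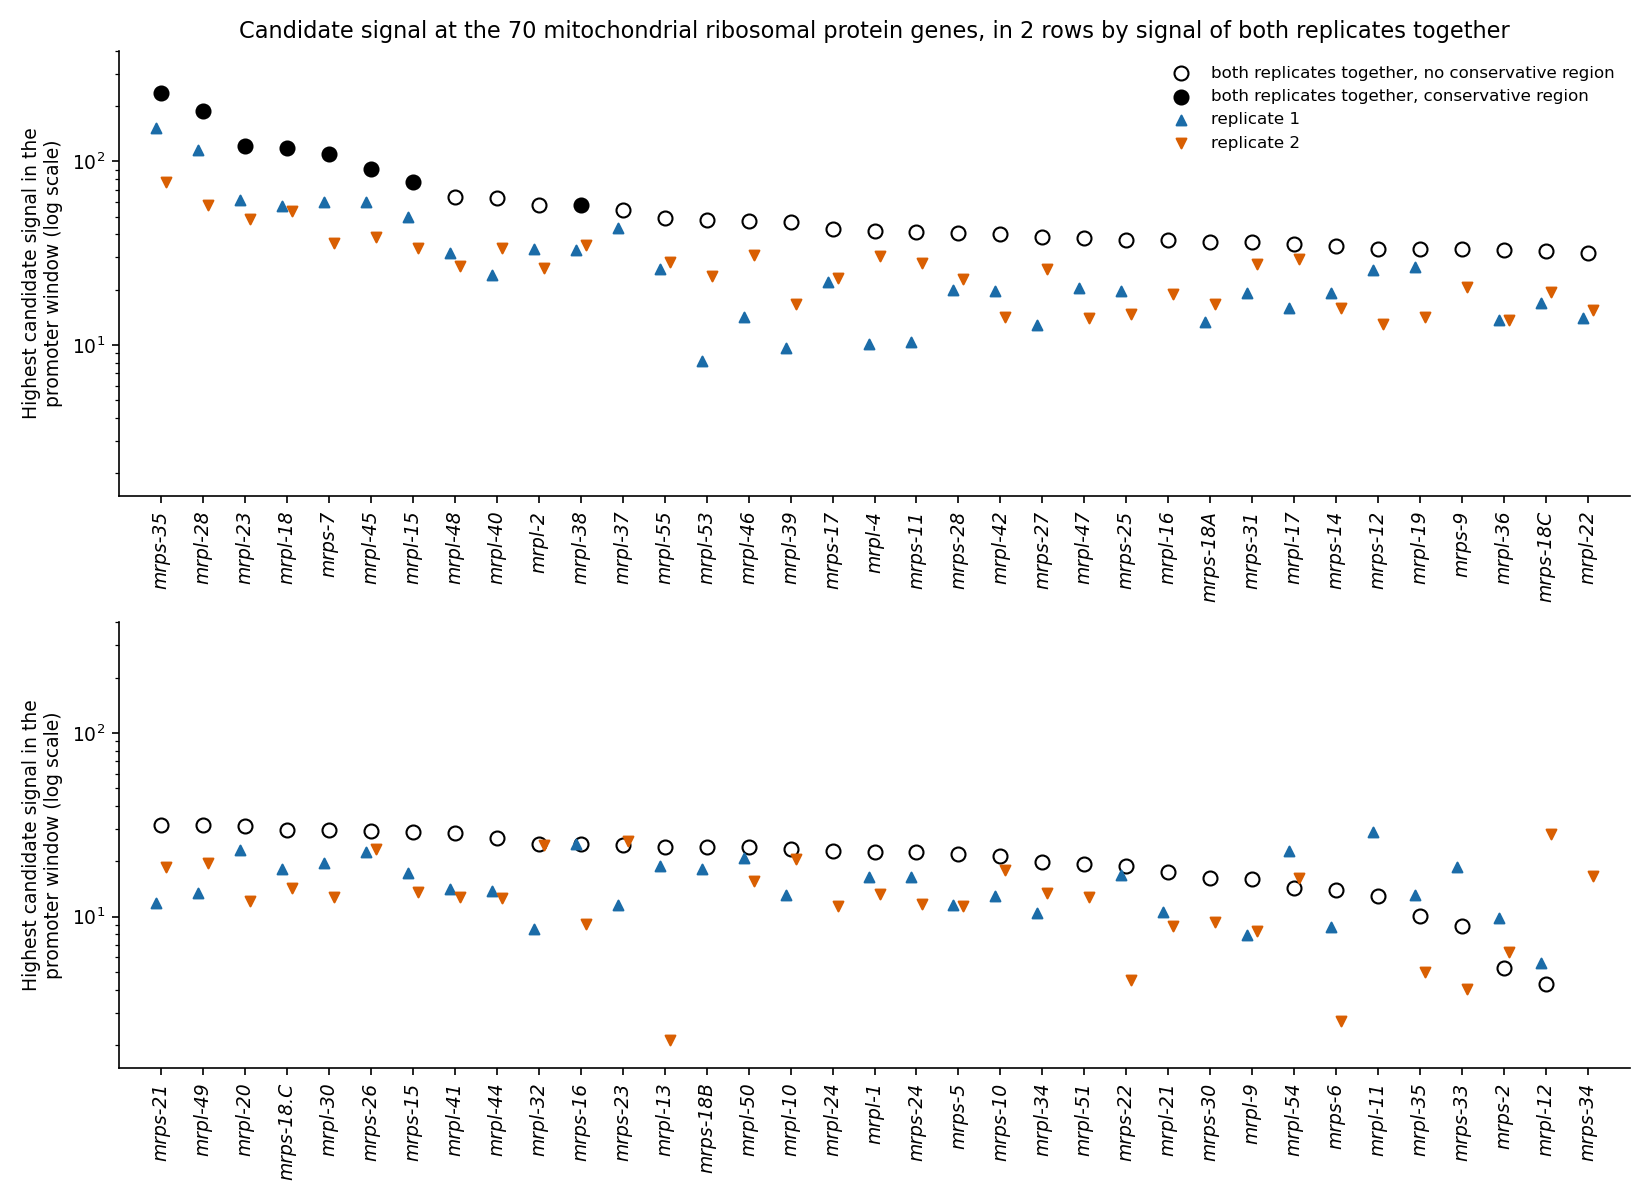
Highest candidate signal (log axis, no stated unit) in the promoter window of each of the 70 genes, ordered by the value of both replicates together (circles, filled where the gene has a conservative region), with replicate 1 (upward triangles) and replicate 2 (downward triangles). A missing symbol means no candidate; filled circles span 57.6 to 236.6 and open ones 4.31 to 63.8.

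Across the 61 members with a candidate in both replicates, Spearman's rho between the replicates was 0.377 and Pearson's r of log2 signal 0.50. Each replicate's highest candidate in the window was used, so some pairs come from different places. Without the members that have a conservative region, rho over the other 53 was 0.052. Over 15636 coding genes rho was 0.315, and over the 15010 without a conservative region 0.230. These are descriptions across genes of the same 2 libraries.

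RefSeq names many products with a prefix for the family: u for families found in all ribosomes (23 members), b for those shared with bacteria (9) and m for those of mitochondria alone (19). The names of the other 19 carry no prefix, though some of them belong to such families, so the classes rest on the form of the name. Bound were 4 of the u class (17.4%), 1 of the b class (11.1%), 3 of the m class (15.8%) and 0 without a prefix, beside 11.4% of all members and 3.16% of all coding genes. Labels and products do not always match: the product of *mrps-18C* is named as the large subunit protein uL3m, that of *mrpl-34* as mL43, and that of *mrpl-48* as a protein with a domain of the small subunit protein uS10. The members lie on chromosomes I to V, 22 of them on III, and none on X. No region of any of the 8 lists lay on the mitochondrial chromosome, which carries the RNAs of the mitochondrial ribosome.

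Other genes of mitochondrial protein synthesis were read from lists of symbols. Of 10 matched translation and RNA factors 3 had a conservative region (4 of the 14 symbols did not match). These were *mtcu-2*, a tRNA modification enzyme gene, with 146.9 in replicate 1 and 92.8 in replicate 2, the elongation factor G gene *gfm-1* with 94.8 and 85.5, and the elongation factor Tu gene *tufm-2* with 68.2 and 43.0. Of 12 matched mitochondrial aminoacyl-tRNA synthetases (3 more did not match) 1 was bound, the glutamyl enzyme's gene *ears-2*, with 47.3 and 42.3.

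Of 17 import genes 3 were bound, the processing peptidase gene *mppb-1* (106.2 and 65.0 in replicates 1 and 2), the outer membrane receptor gene *tomm-20* (66.6 and 46.1) and the small Tim chaperone gene *ddp-1* (50.1 and 39.3). Of 14 chaperone, protease and stress genes 1 was bound, the chaperonin gene *hsp-60*, with a signal of 276.8 in both replicates together. Of 5 genes of mitochondrial DNA maintenance none was, but beside 3.16% of all coding genes a list of 5 is too short to show a lack. Of 51 respiratory chain and ATP synthase genes 6 were bound (11.8%), led by *cox-5A* with 152.2 and 103.3, *atp-1* with 119.7 and 108.0, and *cox-5B* with 90.01 and 35.3.

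Cytosolic ribosomal protein genes are the nearest comparison by function. Of 83, 19 had a conservative region (22.9%), with a median candidate percentile of 81.5, against 11.4% and 61.8 for the mitochondrial set. Their highest signals were above any in a mitochondrial member's own window, with 422.3 at *rpl-3*, 381.8 at *rpl-20* and 302.6 at *rps-24* in both replicates together. The difference between the sets was not tested.

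**Figure D4:**
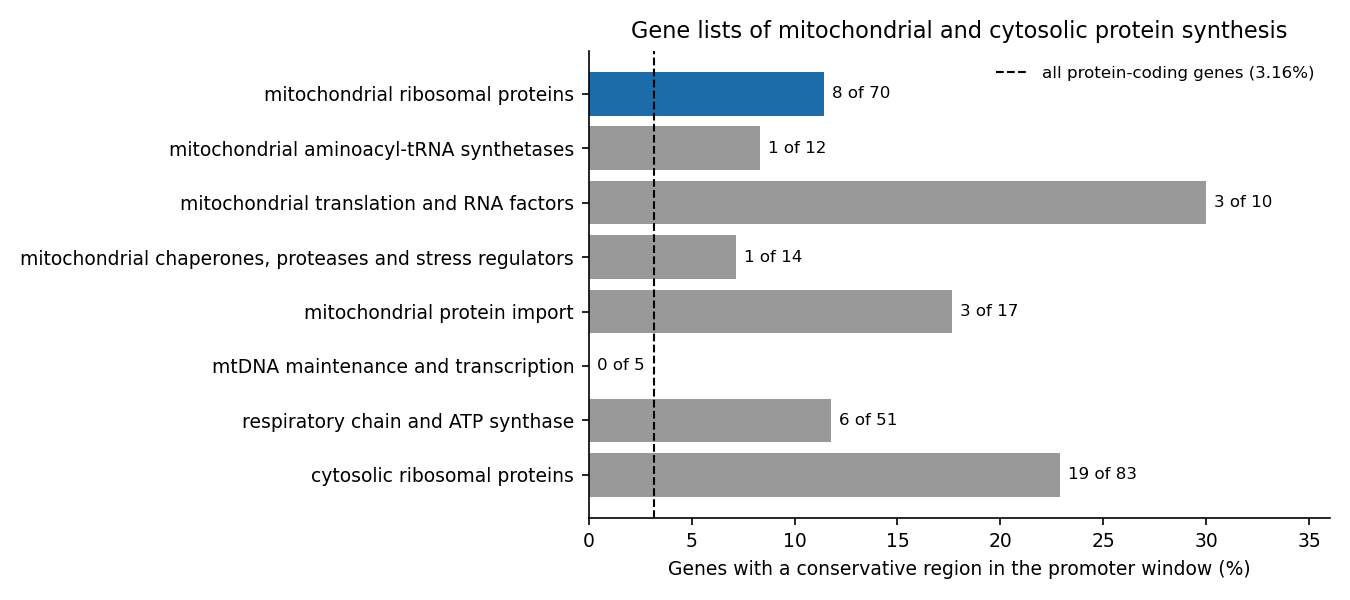
Percent of genes of each list with a conservative region in the promoter window, with the numbers at the bars and the share of all protein-coding genes (3.16%) as a dashed line. Mitochondrial ribosomal protein genes (blue) stand at 8 of 70, cytosolic ones at 19 of 83.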

How the data were processed

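Per the descriptions deposited with the lists, regions were derived from filtered alignments to build ce11 and a control. The name of the aligner is not given in the sources used here, nor is that of the caller. Each region's signal is the authors' value, on an unstated scale. Values of the 2 replicates stand side by side as each replicate's own list gives them, and, depth being unknown, a difference between them cannot be told apart from one of scale. The deposited summit is an offset from the region's start. The ranked lists also hold the deposited −log10 of the IDR, whose lowest value in the thresholded lists lies just above 2, an IDR of 0.01. Of the series lists, 8 columns of per-replicate values name no sample and were not used.

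Genes came from Ensembl release 115, product names and sequence from RefSeq. A replicate's value for a region is that of its own candidate with most shared bases. Where a gene is described by candidate signal, each list's highest candidate in the window was used instead, not matched by place. Windows were tested on simulated summits at 200 genes. Python 3.11.15, pandas 2.3.3 and scipy 1.17.1 were used. The members, lists and layout rules were chosen with earlier results of these data known. Named are members with a region in any thresholded list, the 8 next and 3 lowest by candidate signal, *mrps-5*, and up to 3 bound genes of each other list. First genes of runs, *mrps-18C*, *mrpl-34* and *mrps-28* were named after their values were seen. Alternatives covered lists, strength, windows and gene assignment. Replicates are biological per the labels.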

Additional observations from a re-analysis of the deposited data

How the results depend on the processing

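Of the 70 members, 8 were bound in the main reading, and 4 to 7 with either replicate left out. The count moved by more than 1.5 times without replicate 1 (4), with signal above the list's median (5), an IDR of 0.001 (2) and the nearest gene alone (5). The share of all coding genes, 3.16%, was 1.79% to 2.89% without a replicate, 1.92% with signal above the median, 1.45% at an IDR of 0.001, 4.12% with a window of 2000 bp and 2.26% with the nearest gene alone. In each of these the members' share stayed above it. Regions shared with a neighbour, 4, were 2 to 4 without a replicate and 1 at an IDR of 0.001. The median summit distance, -222 bp, was -376 to -171.5 bp without a replicate and -368 bp with the window of 2000 bp. The median candidate percentile, 61.8, was 52.4 to 56.8 without a replicate, 45.3 in the narrow window and 65.4 with 1 5′ end per gene. First genes bound before tandem members, 10, were 4 to 9 without a replicate, 6 above the median signal, 5 at an IDR of 0.001 and 6 with runs joined up to 200 bp, alternatives chosen after seeing the data; with 1000 bp they were 12. For these settings of signal, IDR and distance the share of all tandem genes was not counted. Counting every transcript of a coding gene, also chosen later, left 8 members bound and gave 3.18% of all genes. The cause of these changes was not tested. No paired analysis was possible because there is 1 group.

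The limits are few samples, unknown depth and a signal on an unstated scale. Members without a region were not detectably bound at this depth, which does not show absence.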
